A study of Homo sapiens with 21 samples.

Results

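The WNT feedback targets and TCF factors followed here were 10 of the 60651 genes in the raw count table of the xenograft RNA-seq, chosen by gene symbol. They were the feedback genes AXIN2, LGR4, RNF43, ZNRF3, NKD1 and DKK1, and the TCF/LEF transcription factors TCF7, TCF7L1, TCF7L2 and LEF1. Libraries came from 21 subcutaneous tumors of A549-Luc2, a single human lung adenocarcinoma cell line that carries a luciferase gene, grown in female athymic nu/nu mice that were 6-8 weeks old at injection. Nude mice lack mature T cells but keep other immune cells. Mice were randomized when tumors averaged 80-100 mm3, 10 to a group, and 7 tumors per group were analysed here. The Control group received the formulation of DMSO, ethanol, PEG400 and corn oil by daily gavage, and the Oxy186 and Oxy210 groups received the same formulation with one of these oxysterol derivatives at 50 mg/kg. The comparisons asked whether either compound changed the transcript level of WNT pathway genes in the tumors. The source study carried only Oxy186 replicates 1 to 4 (r1-r4) forward after looking at a principal component plot of these same libraries, so p-values of that subset are not independent of how it was chosen.

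In canonical WNT signaling, a WNT ligand engages a Frizzled receptor and LRP5 or LRP6, the complex that degrades β-catenin is stalled, and β-catenin enters the nucleus to act with TCF/LEF proteins on target promoters. Several of those targets feed back on the pathway. AXIN2 is a scaffold of the β-catenin destruction complex, RNF43 and ZNRF3 are membrane ubiquitin ligases that remove Frizzled from the cell surface, LGR4 is the R-spondin receptor that restrains these ligases, NKD1 binds Dishevelled, and DKK1 is a secreted antagonist of LRP5 and LRP6. Among the TCF/LEF factors, TCF7L1 is known mostly as a repressor, LEF1 mostly as an activator, and TCF7 and TCF7L2 exist in isoforms of either kind.

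The start regions of DKK1 and LEF1 are printed because these genes stood at opposite ends of the level order described next. They are the 250 bases before the RefSeq transcription start on GRCh38.p14, read 5′ to 3′ on the gene's own strand, DKK1 at chr10:52314031-52314280 on the plus strand and LEF1 at chr4:108166302-108166551 on the minus strand. The RefSeq start used for LEF1 lies inside the gene as GENCODE 44 annotates it, with its 5′ end at 108168956, so the window is that of an internal start. Capitals mark matches, on either strand, to the TCF/LEF motif searched, which was CTTTGAA with T also allowed at either of the last 2 bases.
DKK1: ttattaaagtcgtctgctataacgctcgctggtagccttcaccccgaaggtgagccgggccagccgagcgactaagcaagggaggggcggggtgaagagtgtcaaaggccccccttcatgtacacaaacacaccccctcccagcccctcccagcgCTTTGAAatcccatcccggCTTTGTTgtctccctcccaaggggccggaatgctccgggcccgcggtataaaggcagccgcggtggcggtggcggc
LEF1: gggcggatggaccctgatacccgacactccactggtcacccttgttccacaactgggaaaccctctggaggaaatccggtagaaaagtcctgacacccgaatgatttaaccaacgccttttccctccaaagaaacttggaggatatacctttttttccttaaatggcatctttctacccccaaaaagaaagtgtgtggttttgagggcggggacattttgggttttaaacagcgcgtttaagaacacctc
The DKK1 region held CTTTGAA, starting 95 bases before the start site, and CTTTGTT, whereas none of these 4 spellings occurred in the LEF1 region. At least 1 spelling was found in 13.8% of 35116 RefSeq windows that ran from 250 bases before to 50 bases after a start site, so such a match is a description of letters and not a bound site. Such windows were given for 7 members, with 3 of their 11 windows holding a match, the other matches being in a second window of TCF7 and a second window of TCF7L2. GC content was 63.7% with 20 CpG dinucleotides in the whole DKK1 window, and 47.0% with 9 CpG dinucleotides in that of LEF1.

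Total counts were 13787493 to 17865119 per library, and no 2 libraries of the same group agreed within sampling noise. All 10 epithelial and A549 markers exceeded 1 CPM (counts per 1000000 counts) on average in every group, with summed levels of 16244.6 to 27227.2 CPM. Summed levels were 80.5 to 237 CPM for 8 fibroblast markers, 1.70 to 6.71 CPM for 5 endothelial markers, 10.9 to 28.4 CPM for 5 leukocyte markers, and 0.340 to 1.92 CPM for 6 T cell markers. Of these lists, only COL1A1, DCN, LUM, ACTA2, PECAM1, LYZ and ITGAM averaged over 1 CPM across the 21 libraries. The fibroblast sum came mostly from LUM and COL1A1 (medians 94.4 and 37.8 CPM), while COL1A2 had a median of 0. None of the T cell markers, whose cells carry TCF7 and LEF1, averaged over 1 CPM. Mouse alignments had been removed, so these lists count reads assigned to human genes and do not measure the host's cells. In bulk tumors, fewer cells of a type and less RNA per cell cannot be told apart. Libraries differed in how read counts followed the GC content of exons. The slope of log2 CPM per 10 points of GC was -0.15 to 0.40 in Control, -0.51 to -0.18 in Oxy186 r1-r4, 0.079 to 0.49 in Oxy186 replicates 5 to 7 (r5-r7), and -0.33 to 0.26 in Oxy210. Each comparison is therefore also given with offsets that remove this trend (GC offsets). All slopes of Oxy186 r1-r4 lay below all slopes of Control, so in that comparison the trend and the treatment cannot be told apart. Offsets there would also remove any difference between the groups that follows GC content. Oxy186 r3 had the lowest AXIN2 and TCF7L2 and, in normalized log2 CPM, the highest DKK1 of all 21 libraries, while in unnormalized CPM Oxy210 replicate 2 was higher in DKK1 (279 against 271 CPM).

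In Control tumors the 10 genes covered a wide range of levels per exon length. In reads per kilobase of exon per 1000000 counts (RPKM, mean ± SD, n = 7), DKK1 was highest at 85.6 ± 20.3, followed by the receptor LGR4 at 36.3 ± 7.70. TCF7L2, the most abundant TCF factor, reached 5.38 ± 0.478 RPKM and the ligase RNF43 3.87 ± 0.797 RPKM. Then came TCF7L1 at 2.81 ± 0.605, ZNRF3 at 2.12 ± 0.478, AXIN2 at 1.77 ± 0.345 and TCF7 at 1.56 ± 0.436 RPKM. NKD1 stood far below at 0.055 ± 0.023 RPKM, from 7 to 22 reads per library over 17359 exon bases, and LEF1 had no read in any Control tumor. DKK1, LGR4 and NKD1 did not overlap their lower neighbors across the 7 tumors, and TCF7 did not overlap NKD1. From TCF7L2 down to TCF7, each gene overlapped the next in the order, although TCF7L2 exceeded RNF43 in 7 of 7 tumors, TCF7L1 exceeded ZNRF3 in 6 of 7 and ZNRF3 exceeded AXIN2 in 6 of 7. RNF43, which shares 68.4% of its exon bases with AC004687.2 on the same strand, has an uncertain place in this order. The order also rests on the length used for each gene, since with the longest transcript in place of all exons TCF7 moved from 8th to 6th and ZNRF3 from 6th to 8th.

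**Figure D1:**
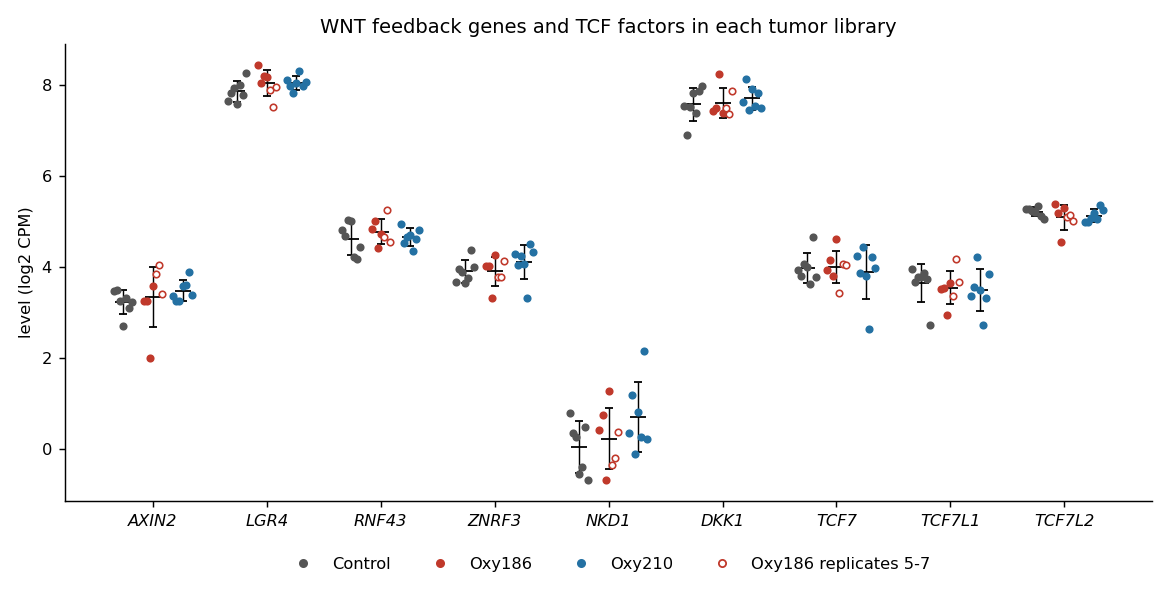
Level (log2 CPM) of the 9 members with reads in every library, one point per tumor (7 per group, colored by group; open points are Oxy186 r5-r7), with the group mean and SD as black bars. For each gene the 3 groups overlap, and single libraries stand apart: Oxy186 r3 at 2.01 for AXIN2, Oxy210 replicate 5 at 2.65 for TCF7 and Oxy210 replicate 6 at 2.15 for NKD1.

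LEF1 was close to undetected at this depth. Over 316955900 reads in 21 libraries, 1 read was assigned to LEF1 (exact 95% Poisson interval 0.025 to 5.57 reads, counting error only), in Oxy210 replicate 2, and 2 reads to its antisense gene LEF1-AS1. With 0 reads a library allows up to 3 counts, which is 0.168 to 0.218 CPM here. Per exon length, TCF7L2 was 87.0 to 183 times that limit in the same library. The other 9 members passed the filter on low counts in every comparison, and LEF1 passed in none. Of the reads per kilobase assigned to the 4 TCF/LEF genes, TCF7L2 took 55.3 ± 5.70%, TCF7L1 28.2 ± 4.56% and TCF7 16.5 ± 3.57% (mean ± SD, n = 21), and LEF1 between 0 and 0.144%. TCF7L2 was the largest share in each of the 21 libraries. By group its share was 55.5 ± 4.71% in Control, 54.4 ± 4.53% in Oxy186 and 56.1 ± 8.00% in Oxy210 (n = 7 each), so the group means lay within 1 SD of each other. The widest range was in Oxy210, where the TCF7L2 share ran from 44.1% to 70.2% and the high end was replicate 5, the library with the lowest TCF7.

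**Figure D2:**
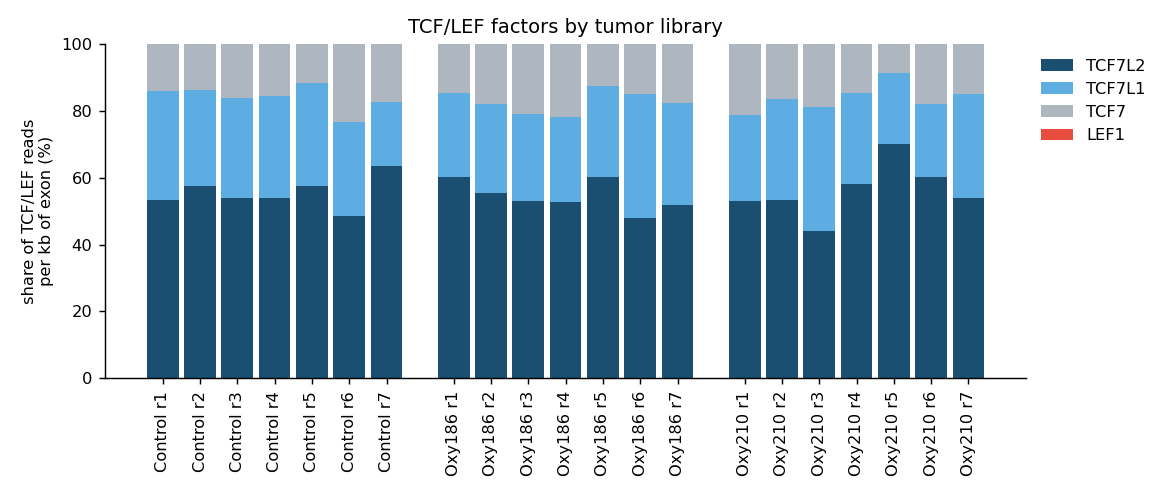
Share of TCF/LEF reads per kilobase of exon (%, vertical axis) taken by each of the 4 factors in each of the 21 tumor libraries, arranged by group. TCF7L2 is the largest segment in every bar, between 44.1% and 70.2%, and LEF1 is too small to see.

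None of the 9 tested members passed the test for a difference between Oxy186 and Control. AXIN2, a widely used readout of β-catenin activity, ranged from 2.71 to 3.50 log2 CPM in Control (median 3.25) and from 2.01 to 4.04 in Oxy186 (median 3.42). Its Oxy186 values lay on both sides of Control, 3 tumors above the highest Control tumor and 1 below the lowest. The log2 fold change of AXIN2 was 0.21 (95% interval -0.28 to 0.71). By the quasi-likelihood test of edgeR, with p-values adjusted across the table by the Benjamini-Hochberg method, 0 of 9 members were called at an adjusted p of 0.05, against 0.0% of 16291 genes. No member had an unadjusted p under 0.05, a level that 632 genes reached, and limma voom and DESeq2 likewise called 0 members and 0 genes. The member fold changes ran from -0.095 for TCF7L1 to 0.28 for NKD1, with adjusted p-values of 0.836 to 0.984. The median fold change of the 9 members was 0.036 and that of all genes 0.016 on the log2 scale.

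The other feedback genes overlapped in the same way. LGR4 was 7.58 to 8.26 log2 CPM in Control (median 7.82) and 7.52 to 8.44 in Oxy186 (median 8.05), with a log2 fold change of 0.19 (95% interval -0.12 to 0.51). DKK1 was 6.90 to 7.97 in Control (median 7.54) and 7.35 to 8.24 in Oxy186 (median 7.48). The DKK1 fold change was 0.036 (-0.33 to 0.40), and without Oxy186 r3, the highest library, it was -0.10. RNF43 was 4.19 to 5.03 in Control (median 4.68) and 4.42 to 5.24 in Oxy186 (median 4.74), a log2 fold change of 0.15 (-0.20 to 0.50). ZNRF3 was 3.65 to 4.37 in Control (median 3.89) and 3.32 to 4.27 in Oxy186 (median 4.02), a log2 fold change of 0.016 (-0.33 to 0.36). The per-length ratio of RNF43 to ZNRF3 was 1.93 ± 0.673 in Control, 2.09 ± 0.538 in Oxy186 and 1.64 ± 0.328 in Oxy210 (mean ± SD, n = 7 each). AC004687.2, the gene that shares exon bases with RNF43, had 0 to 14 counts, so the RNF43 level is uncertain if reads in the shared part were left unassigned. AXIN2 shares 25.3% with AC004805.1 (0 to 1 counts) in the same way, and 10.2% of DKK1 exon bases overlap a gene on the opposite strand, whose reads cannot be told apart without strand.

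Among the TCF factors, TCF7L2 varied least. It spanned 5.05 to 5.35 log2 CPM in Control (median 5.22) and 4.55 to 5.38 in Oxy186 (median 5.14), a log2 fold change of -0.094 (-0.36 to 0.17). The lowest of these was Oxy186 r3. TCF7 was 3.63 to 4.65 in Control (median 3.93) and 3.44 to 4.61 in Oxy186 (median 4.05), a log2 fold change of 0.034 (-0.36 to 0.43). The repressor TCF7L1 was 2.73 to 3.96 in Control (median 3.78) and 2.95 to 4.17 in Oxy186 (median 3.53). Its log2 fold change of -0.095 (-0.50 to 0.31) became 0.13 with GC offsets. The intervals of TCF7L2, ZNRF3, DKK1, TCF7 and RNF43 (upper end 0.499) lay within 0.5 of 0 on the log2 scale. Those of AXIN2 and NKD1 reached 0.71 and 1.04.

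Between Oxy210 and Control, likewise, no member passed the test. In edgeR's test 0 of 9 members were called, against 0.0% of 16396 genes, while 1 member and 2302 genes had an unadjusted p under 0.05. The member was NKD1, whose Control values ran from -0.67 to 0.80 log2 CPM (median 0.28) and whose Oxy210 values ran from -0.089 to 2.15 (median 0.35). Above the range were 3 Oxy210 tumors, which exceeded all Control tumors, and the medians were close. The NKD1 log2 fold change was 0.87 (SE 0.38, 95% interval 0.076 to 1.66, adjusted p = 0.327 in edgeR's test). It rests largely on Oxy210 replicate 6, with 69 NKD1 reads against 7 to 36 in every other library, and without that library it was 0.44 (adjusted p = 0.601). DESeq2 called 92 genes and limma voom 0 in this comparison, and no member was among them.

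AXIN2 was 3.26 to 3.90 log2 CPM in Oxy210 (median 3.39), with 3 of 7 tumors above the highest Control tumor and none below the lowest. The AXIN2 log2 fold change was 0.28 (95% interval -0.035 to 0.59, adjusted p = 0.400 in edgeR's test). With GC offsets it was 0.41 (0.043 to 0.78, adjusted p = 0.304). ZNRF3 was 3.33 to 4.51 log2 CPM in Oxy210 (median 4.24), a log2 fold change against Control of 0.24 (-0.091 to 0.58). LGR4 was 7.82 to 8.30 (median 8.05), a log2 fold change of 0.19 (-0.059 to 0.44). DKK1 was 7.45 to 8.12 (median 7.63) and RNF43 4.35 to 4.96 (median 4.66), with log2 fold changes of 0.14 (-0.18 to 0.46) and 0.030 (-0.26 to 0.32). TCF7 was 2.65 to 4.44 (median 3.99), TCF7L1 2.73 to 4.22 (median 3.49) and TCF7L2 4.99 to 5.37 (median 5.07). Their log2 fold changes were -0.034 (-0.47 to 0.40), -0.11 (-0.52 to 0.30) and -0.064 (-0.26 to 0.13). Of the 9 member fold changes 6 were above 0 and 3 below, with a median of 0.14 against 0.0051 over all genes. With GC offsets 8 were above 0 and 1 below, with a median of 0.081 against 0.0011. The Control tumors are the same as in the Oxy186 comparison.

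Set against each other at the matched dose of 50 mg/kg, the oxysterols gave no member that passed the test. In edgeR's test 0 of 9 members were called, against 0.0% of 16361 genes, with 0 members and 664 genes at an unadjusted p under 0.05. DESeq2 called 14 genes and limma voom 0. None was a member, but DESeq2 gave an adjusted p for only 2 of the 9 members, LGR4 and DKK1. The log2 fold change of Oxy186 over Oxy210 ran from -0.58 for NKD1 (95% interval -1.44 to 0.27) to 0.12 for RNF43 (-0.17 to 0.42), and the adjusted p was 1.00 for each of the 9. Without Oxy210 replicate 6 the NKD1 value was -0.17. For LGR4 it was -0.00029 (-0.28 to 0.28) and for TCF7L2 -0.028 (-0.29 to 0.24). The AXIN2 difference was -0.061 with an interval of -0.55 to 0.43. Leaving out Oxy186 r3 turned it to 0.096 and leaving out Oxy210 replicate 6 to 0.034. These intervals do not show that the compounds act alike, and that of NKD1 was the widest.

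**Figure D3:**
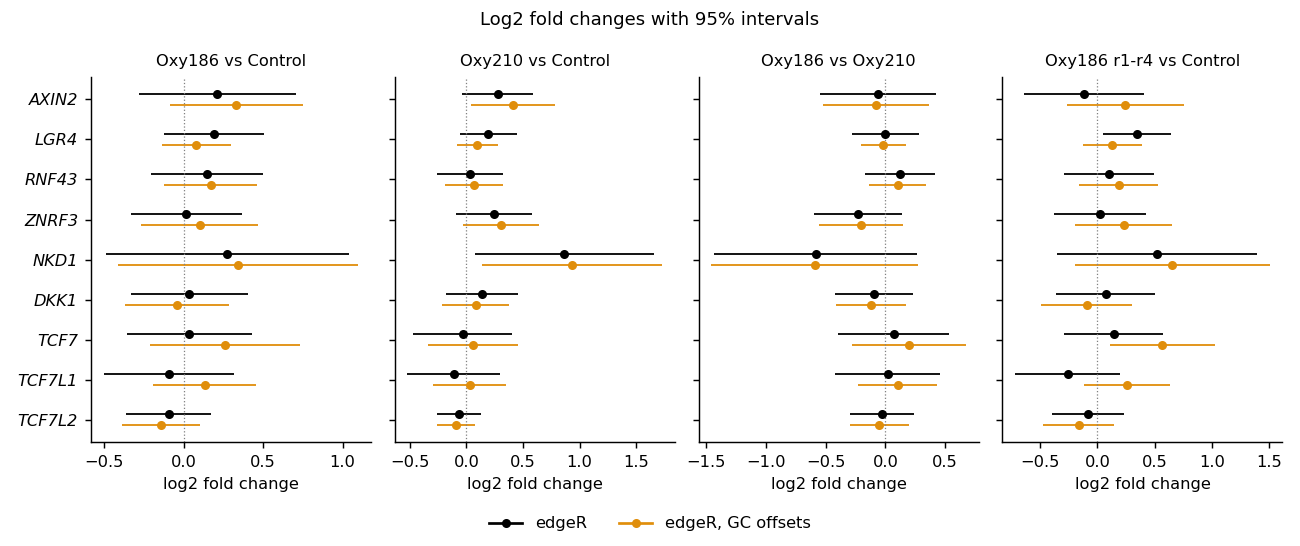
Log2 fold change (horizontal axis) with its 95% interval for the 9 tested members in the 4 comparisons, from edgeR on the counts (black) and with GC offsets (orange). Most intervals cover 0. Without offsets the exceptions are NKD1 in Oxy210 vs Control and LGR4 in Oxy186 r1-r4 vs Control, and with offsets AXIN2 and NKD1 in Oxy210 vs Control and TCF7 in Oxy186 r1-r4 vs Control, none of which passed adjustment.

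Many genes were called in the comparison of the Oxy186 r1-r4 subset with Control, and no member was among them. In edgeR's test 3323 of 16852 genes (19.7%) were called, 797 higher and 2526 lower, and with GC offsets 683 genes (4.05%), 302 higher and 381 lower. Of the 9 members 0 were called in either fit. Limma voom called 3294 and DESeq2 4385 of the 16852 genes, with 0 members in each. In each of the edgeR fits 1 member had an unadjusted p under 0.05, beside 5856 genes (34.7%) without and 3157 (18.7%) with GC offsets. Genes whose exon GC content lay within the members' range of 41.4% to 57.4% were called in 1023 of 9707 cases (10.5%). The count of 0 of 9 is not read as a departure from these shares.

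LGR4 came closest to a call. It was 8.05 to 8.44 log2 CPM in r1-r4 (median 8.19) against 7.58 to 8.26 in Control (median 7.82), with 1 of the 4 tumors above all Control tumors. Its log2 fold change was 0.35 (SE 0.14, 95% interval 0.050 to 0.64, adjusted p = 0.0905 in edgeR's test). Without Control replicate 7 it was 0.42 and passed (adjusted p = 0.0291), and with GC offsets it was 0.13 (adjusted p = 0.628). LGR4 has the lowest exon GC content of the members, 41.4%, and genes between 40.8% and 41.8% GC had a median log2 fold change of 0.24 in the same fit. TCF7 moved the other way with the offsets, from 0.14 (-0.29 to 0.57) to 0.57 (0.11 to 1.02, adjusted p = 0.159). Its exon GC content is 56.3%, where the median gene stood at -0.43 without offsets and at -0.0030 with them.

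AXIN2 in r1-r4 was 2.01 to 3.59 log2 CPM (median 3.25). Its log2 fold change of -0.12 (-0.64 to 0.41) became 0.24 (-0.27 to 0.76) with GC offsets and 0.13 without Oxy186 r3. NKD1 gave 0.52 (-0.36 to 1.39), RNF43 0.10 (-0.29 to 0.50), ZNRF3 0.021 (-0.38 to 0.42) and DKK1 0.072 (-0.36 to 0.51). Leaving out 1 of the 4 Oxy186 tumors moved NKD1 to between 0.21 (without Oxy186 r4) and 0.79 (without Oxy186 r3), and RNF43 to between 0.0094 (without Oxy186 r2) and 0.20 (without Oxy186 r3). TCF7L1 gave -0.26 (-0.72 to 0.20), or 0.26 with offsets, and TCF7L2 -0.085 (-0.40 to 0.23). Thus the sign of the AXIN2, DKK1 and TCF7L1 differences depended on whether the GC trend was removed.

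**Figure D4:**
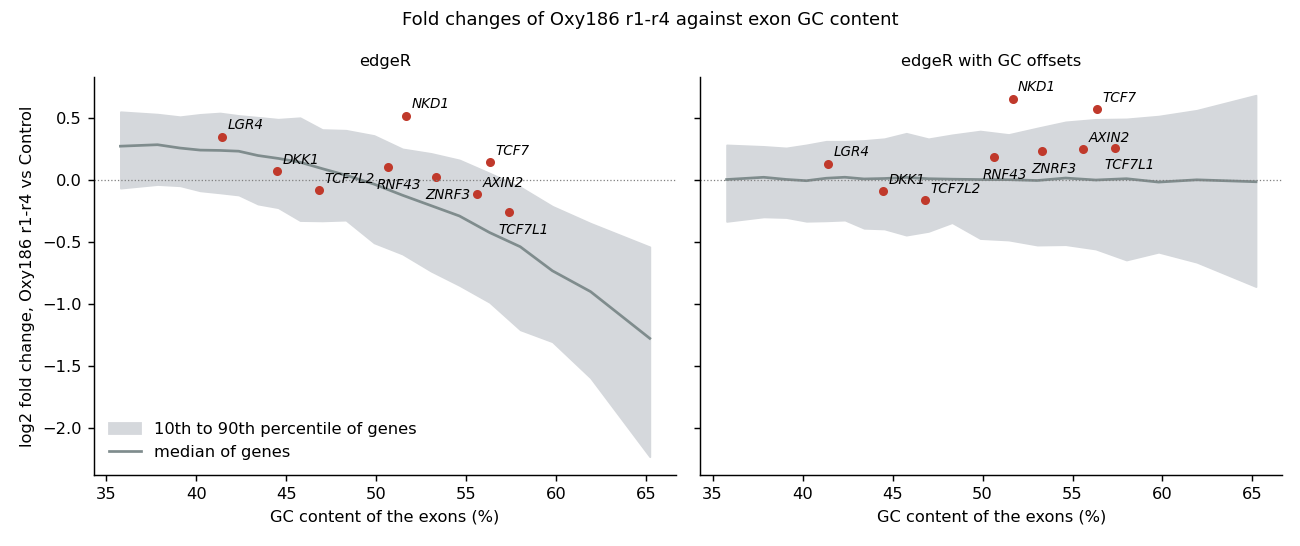
Log2 fold change of Oxy186 r1-r4 over Control (vertical axis) against exon GC content (%, horizontal axis), without (left) and with (right) GC offsets. The grey line is the median and the band the 10th to 90th percentile of all tested genes in 20 bins of GC content, and red points are the 9 members. Without offsets the gene median drops from 0.27 in the lowest bin to -1.28 in the highest, while the members run from -0.26 (TCF7L1) to 0.52 (NKD1), and LGR4 at 0.35 and TCF7 at 0.14 lie above the medians of 0.24 and -0.43 in their bins.

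Of 94 other WNT pathway genes, 74 passed the filter in each comparison of whole groups. In edgeR's test 0 were called, with 4, 9 and 0 at an unadjusted p under 0.05 for Oxy186 vs Control, Oxy210 vs Control and Oxy186 vs Oxy210. In Oxy186 r1-r4 vs Control 19 of 76 were called, 1 higher and 18 lower, beside 19.7% of all genes. They were 4 of 15 receptors and agonists, 7 of 18 cytoplasmic transducers, 4 of 15 nuclear partners, 3 of 11 inhibitors and 1 of 17 other targets. The 5 with the smallest adjusted p were CSNK1E, a casein kinase that acts on Dishevelled, at -1.34 (adjusted p = 0.000782 in edgeR's test), the receptor FZD9 at -3.40, NKD2, the relative of NKD1, at -1.29, APC2 at -1.64 and DVL1, a Dishevelled, at -1.19. The 18 lower genes had exon GC contents of 55.7% to 68.8% (median 60.3%), and the 1 higher gene, APC at 0.48, had 40.5%. With GC offsets 3 of 76 (3.95%) were called, beside 4.05% of all genes. CSNK1E stayed lower at -0.72 (edgeR adjusted p = 0.0139). AXIN1, which like AXIN2 is a scaffold of the destruction complex, went from -0.48 to 0.64 (edgeR adjusted p = 0.00604). The corepressor CTBP1 went from -0.34 to 0.54 (edgeR adjusted p = 0.00934). How far the GC trend accounts for the other calls was not tested.

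MYC, CCND1 and TNFRSF19, other WNT targets that were measured in the source study, were not called in any of the 4 comparisons. Of all genes, 0.0% were called in the comparisons of whole groups and 19.7% in Oxy186 r1-r4 vs Control. By RT-qPCR, the study reported MYC and CCND1 significantly lower in Oxy186-treated xenografts and only slightly lower with Oxy210. It does not say which tumors were used for this. The study also reported negative enrichment of WNT, MYC and CCND1 gene sets with Oxy186, and lower RT-qPCR levels of genes picked from them. No gene set was tested here. The study measured TNFRSF19, and with it the members AXIN2, TCF7 and LEF1, in cultured A549 cells, a different setting from these tumors. It reported that WNT conditioned medium raised each of these genes in the cells and that both oxysterols inhibited the rise. In the tumors, AXIN2 and TCF7 were not called in any of the 4 comparisons. LEF1 had too few reads to be tested there. MYC was 6.08 ± 0.387 log2 CPM in Control, 5.97 ± 0.477 in Oxy186 and 5.92 ± 0.415 in Oxy210 (mean ± SD, n = 7 each). CCND1, which encodes cyclin D1, was 8.23 ± 0.259, 8.04 ± 0.341 and 8.13 ± 0.396 in the same order. TNFRSF19, also known as TROY, was 3.68 ± 0.437, 3.54 ± 0.258 and 3.73 ± 0.297. The means of these 3 whole groups differed by less than the SD within groups. In Oxy186 r1-r4 (n = 4), MYC was 6.02 ± 0.231, CCND1 8.08 ± 0.321 and TNFRSF19 3.46 ± 0.152 log2 CPM.

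With group means removed, the members did not vary together as a block. Over the 36 pairs of 9 members, Pearson's r across 21 libraries had a median of 0.13 and ran from -0.70 to 0.80. These correlations describe libraries that share GC trend and composition, and no test was applied. The closest pair was ZNRF3 and TCF7 at r = 0.80, still 0.79 with the GC trend removed and 0.67 without Oxy210 replicate 5, the library lowest in TCF7. AXIN2 and TCF7L2 gave r = 0.68, but 0.31 without Oxy186 r3. DKK1 ran against both, at -0.57 with AXIN2 and -0.63 with TCF7L2, values that became -0.36 and -0.46 without Oxy186 r3. LGR4 and TCF7L1, the members of lowest and highest GC content, gave -0.70, which fell in size to -0.32 once the GC trend was removed. Their own correlations with the GC slope of the library, taken with group means left in, were -0.80 and 0.67.

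**Figure D5:**
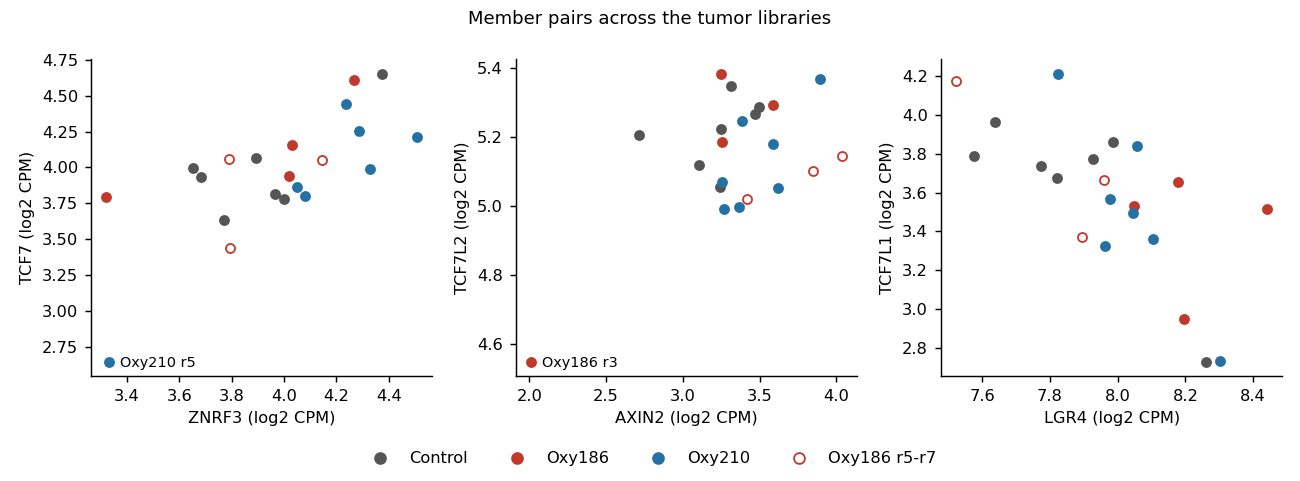
Levels (log2 CPM on both axes) of 3 member pairs, one point per tumor library, colored by group, with open points for Oxy186 r5-r7. ZNRF3 and TCF7 are high and low in the same libraries, AXIN2 and TCF7L2 owe much of their relation to Oxy186 r3 at 2.01 and 4.55, and LGR4 and TCF7L1 run in opposite directions. The r of 0.80, 0.68 and -0.70 were taken after group means were removed.

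The spread of each member within groups differed as well. TCF7L2 had an SD of 0.19 on the log2 scale, at the 12.7th percentile of 2953 genes of like level, whereas AXIN2 at 0.43 was at the 65.8th and DKK1 at 0.32 at the 70.5th percentile. NKD1, with the fewest reads, had the widest SD of 0.68. Of 13605 genes whose log2 CPM averaged 1 or more, the 5 most like AXIN2 across the 21 libraries were MNT (r = 0.86), FGFRL1 (0.84), SPTB (0.83), AL390719.1 (0.83) and VPS13D (0.82). Without Oxy186 r3 their r was 0.60 to 0.79. With the GC trend removed MNT was still the first at 0.88, and it was the 1 gene of the 5 that remained in the list. TCF7L2 was the member most like AXIN2, at rank 231, and LGR4, RNF43, ZNRF3, DKK1, TCF7 and TCF7L1 ranked 3115 or lower.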

How the data were processed

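RNA-seq was performed on 21 A549-Luc2 xenograft tumors. The authors trimmed reads with Trimmomatic 0.39, aligned them with STAR 2.7.6a to a combined human GRCh38.p13 and mouse GRCm39 genome, kept human alignments, and deposited raw counts of uniquely mapped reads per gene from featureCounts (Subread 2.0.1, GENCODE 37). The strand setting is not given in the sources used here. A second deposited table, log2 CPM of part of the libraries, was not used. Tumors of a group are numbered as replicates but not tied to mice, so p-values measure the spread between tumors.

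Counts were tested with edgeR 4.0.16 (R 4.3.3) after filterByExpr and TMM normalization, by quasi-likelihood tests with Benjamini-Hochberg adjustment, and called at an adjusted p of 0.05. Scripts were tested on simulated data. Levels are log2 CPM (prior count 2), and RPKM used total counts and exon lengths of GENCODE 44. GC offsets were splines (4 df) per library of log2 CPM on exon GC content, fitted to genes averaging log2 CPM of 1 or more. A replicate that shares its number across groups did not deviate with it (r from -0.40 to 0.33, 4 of 21 over 0.1), so samples were not paired. Alternatives were limma voom 3.58.1, DESeq2 1.42.0, library size alone, other filters, all libraries in 1 fit, GC offsets, a replicate block, a fold over 2 and leaving out libraries. Libraries of Control, Oxy210 and, in whole-group fits, Oxy186 were left out by a choice made after seeing the data. Named genes were the members, up to 5 called pathway genes with the smallest adjusted p per comparison, 3 targets the study measured and the 5 genes most like AXIN2; APC, the 1 gene called higher, AXIN1 and CTBP1 were singled out after their values were seen. Members and lists were chosen with earlier results of these data known.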

Additional observations from a re-analysis of the deposited data

Results flagged for a closer look

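By Dixon's 95% criterion, 6 values stood apart from the rest of their group among 36 groups of member values examined. Chance alone gives about 1.8 for normal values. The groups are not independent, since Oxy186 r1-r4 is part of Oxy186 and the members share libraries, so no excess over chance is read from this. Oxy186 r3 was the lowest of its group in AXIN2 (2.01 log2 CPM) and the highest of Oxy186 r1-r4 in DKK1 (8.24). Oxy210 replicate 5 was the lowest of its group in both ZNRF3 (3.33) and TCF7 (2.65), the pair with the highest correlation among members. Control replicate 6 was the highest Control tumor in TCF7 (4.65), and Control replicate 7 the lowest in TCF7L1 (2.73). What set these libraries apart was not tested. The effect of leaving each of them out is given with the processing alternatives.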

How the results depend on the processing

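Of 464 member fold changes recomputed under an alternative, 416 kept their direction and their side of the threshold, 7 kept their direction but had no adjusted p (DESeq2, Oxy186 vs Oxy210), 40 changed sign without a call, and 1 became a call. That call was LGR4 in Oxy186 r1-r4 vs Control without Control replicate 7 (0.42, adjusted p = 0.0291 in edgeR's test), so members called there ran from 0 to 1 over the libraries left out, and its fold change from 0.27 to 0.42. The largest reversed value was 0.26 in size. The cause of these changes was not tested.

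For genes called in Oxy210 vs Control, DESeq2 gave 92, no filter 11 and the replicate block 2. In Oxy186 vs Oxy210, DESeq2 gave 14, and no filter, all 21 libraries in one fit, GC offsets and the replicate block with GC offsets 1 each. In Oxy186 r1-r4 vs Control the count was 683 with GC offsets, 68 with the replicate block and GC offsets, 1406 with a fold over 2, and 1836 to 3957 without single libraries, the low end without Oxy186 r4 and the high end without Control replicate 7; without Oxy186 r3 it was 1875. Of the 5 genes most like AXIN2, 1 was shared once the GC trend was removed.

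Reversed log2 fold changes in Oxy186 vs Control were ZNRF3 at -0.012 with no filter, DKK1 at -0.042 with GC offsets and -0.037 with the replicate block and GC offsets, and TCF7L1 at 0.13 and 0.13 in the same pair of fits. In Oxy210 vs Control, TCF7 was 0.022 with library size alone, and TCF7 and TCF7L1 were 0.061 and 0.027 with GC offsets and 0.057 and 0.019 with the replicate block and GC offsets. In Oxy186 vs Oxy210, LGR4 was 0.012 by DESeq2, 0.025 with no filter and 0.013 with all 21 libraries, and TCF7L1 was -0.019 with library size alone. In Oxy186 r1-r4 vs Control, GC offsets gave AXIN2 0.24, DKK1 -0.095 and TCF7L1 0.26. The replicate block gave RNF43 -0.14 there, and with GC offsets AXIN2 0.26, RNF43 -0.019 and TCF7L1 0.23.

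Leaving out single libraries gave ranges that crossed 0 for the following. DKK1 ran from -0.10 to 0.12 in Oxy186 vs Control. In Oxy210 vs Control, RNF43 ran from -0.033 to 0.070 and TCF7 from -0.087 to 0.11. In Oxy186 vs Oxy210, AXIN2 ran from -0.024 to 0.096, LGR4 from -0.0025 to 0.061, TCF7 from -0.065 to 0.12, TCF7L1 from -0.077 to 0.12 and TCF7L2 from -0.030 to 0.065. In Oxy186 r1-r4 vs Control, AXIN2 ran from -0.26 to 0.13, ZNRF3 from -0.061 to 0.18, DKK1 from -0.18 to 0.20, TCF7 from -0.0033 to 0.28 and TCF7L2 from -0.18 to 0.071.

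Replicate numbers did not pair the samples, and in 1 of 21 same-numbered pairs between groups the same number gave the highest correlation. NKD1 could not be fitted at the minimum of 10 counts. No fold change is given for LEF1, with 1 read in all.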
